A study of Danio rerio with 12 samples.

Results

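The effect of tritiated water on the messenger RNA of zebrafish larvae was compared between 7 and 10 days post fertilization (dpf). For each gene the exposed-to-control log2 fold change at 7 dpf was subtracted from that at 10 dpf, in 1 fit over all 12 libraries of the series. A difference above 0 is called higher here and means that exposed larvae stood higher relative to their controls at 10 dpf than at 7 dpf. Below 0 it is called lower. Of 23075 genes tested, 62 passed edgeR's quasi-likelihood test of this difference at a Benjamini-Hochberg adjusted p under 0.05, which is 0.269% of them. Of these, 24 were higher (0.104%) and 38 were lower (0.165%).

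All larvae were of the AB strain of Danio rerio and were taken entire, without dissection. Exposed larvae were kept in tritiated water (HTO), water with some of its hydrogen as radioactive tritium, which gave a dose rate of 0.4 mGy/h, and control larvae in water without it. The 4 groups were control and exposed larvae at 7 dpf and control and exposed larvae at 10 dpf, each with 3 libraries that the labels call biological replicates (n = 3 for every mean ± SD below). Exposed dishes stood in an incubator within a glove box and control dishes in an incubator outside it, so the incubator and the exposure cannot be told apart here. The start and length of the exposure are not stated here. If exposure ran up to sampling, age cannot be told apart from length of exposure and total dose. The labels do not say whether replicates came from separate clutches or how many larvae were pooled, and p-values measure the spread between these libraries.

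Tritium emits beta particles of very low energy, and tritiated water spreads through all tissues of an animal. By about these ages a zebrafish larva has used up most of its yolk and depends on feeding, while retina, brain, skin, gut and muscle go on growing. The change with age in controls, as fitted and without a test, is given beside several groups of genes below. The values come from entire larvae, in which fewer cells of a type and less RNA per cell cannot be told apart.

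Libraries held 19379018 to 67338921 reads on genes. Levels are given in CPM, a gene's reads relative to the TMM-scaled total of its library, and they compare libraries for 1 gene, not genes with each other. Exposed replicate 1 at 10 dpf stood apart from the other libraries. Its correlation with the other replicates of its group reached down to 0.951 (Pearson's r of log2 CPM across genes), where replicates of the other groups correlated at 0.9797 or more. In that library the summed level of 46 liver genes was 3563 CPM against 10314 and 13575 CPM in replicates 2 and 3, and that of 37 genes of the exocrine pancreas 4308 CPM against 32955 and 38595 CPM. Without it 41 genes were called for the difference, 37 of them among the 62. The values of lists are therefore given with and without this library. The count also depended on other libraries. Without control replicates 2 and 3 and exposed replicates 1, 2 and 3 at 7 dpf, each left out in turn, it was 12, 39, 10, 24 and 14. Without control replicates 1 and 2 and exposed replicates 2 and 3 at 10 dpf it was 17, 24, 27 and 30. Without control replicate 1 at 7 dpf and control replicate 3 at 10 dpf it was 63 and 47, with 47 and 27 of them among the 62. Of the 62 genes, 7 were called in all 12 of these fits, and in none of the 62 did the difference change sign.

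At 7 dpf 119 genes passed the test of exposed against control larvae (0.516% of the genes tested), and at 10 dpf 2721 did (11.8%). The 2 effects share no library. Across all 23075 genes they correlated with a Pearson's r of 0.502 and a Spearman's rho of 0.338, and across the 15333 genes whose mean reached 5 CPM in any group with 0.574 and 0.407. These values describe genes, which are not independent replicates. Of the 1101 genes called higher in exposed larvae at 10 dpf, 80.02% had a fitted effect above 0 at 7 dpf, with a median of 0.12 on the log2 scale. Of the 1620 called lower at 10 dpf, 85.62% had an effect below 0 at 7 dpf, with a median of -0.24. Over all genes tested, 47.39% of the 7 dpf effects were above 0 and 52.61% below 0. Most genes called at 10 dpf thus had a fitted effect of the same sign at 7 dpf. Their medians at 10 dpf were 0.46 and -0.71, but they were selected by their 10 dpf values. Genes selected at 7 dpf had smaller medians at 10 dpf. The 41 called higher at 7 dpf had medians of 0.68 at 7 dpf and 0.36 at 10 dpf. The 78 called lower had -1.25 and -0.91. These medians therefore do not show at which age the effect was larger.

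In all, 81 genes were called at both ages. Of these 78 had the same direction (0.338% of the genes tested) and 3 opposite directions (0.013%). None of the 78 was called for the difference by edgeR, which called 62 of all genes at this threshold and had 2606 at an unadjusted p under 0.05. The 95% interval of the difference had a median half-width of 0.333 on the log2 scale in genes with at least 5 CPM, so that differences of this size or less were mostly within the error of a single gene.

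Among the 62 called genes the fitted effects at the 2 ages had opposite signs in 41 (8824 of all 23075 genes, or 38.2%, had opposite signs). Exposed larvae were lower at 7 dpf and higher at 10 dpf in 15 of them, and higher at 7 dpf and lower at 10 dpf in 26. In 20 the effect had the same sign and was larger at 10 dpf, and in 1, nr1d4a, it had the same sign and was larger at 7 dpf. Over all 23075 genes these classes held 4647, 4177, 9434 and 4817 genes, in the order given. Most of the opposite signs rest on 7 dpf values that did not pass the test: 56 of the 62 were called at 10 dpf only, 3 at 7 dpf only and 3 at both ages. Exposed and control libraries lay apart, without overlap, in 60 of the 62 genes at 10 dpf and in 23 at 7 dpf. Among all 23075 genes, 7801 lay apart at 10 dpf and 3865 at 7 dpf. The test that picked the 62 used these same libraries, so their separation is no further support. In the controls, 23 of the 24 higher genes had a lower fitted level at 10 than at 7 dpf, and 27 of the 38 lower genes a higher one. Of all 23075 genes, 11762 had a lower level at 10 dpf in the controls and 11313 a higher one. The controls enter both the difference and this age change, so these counts are not separate evidence.

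**Figure D1:**
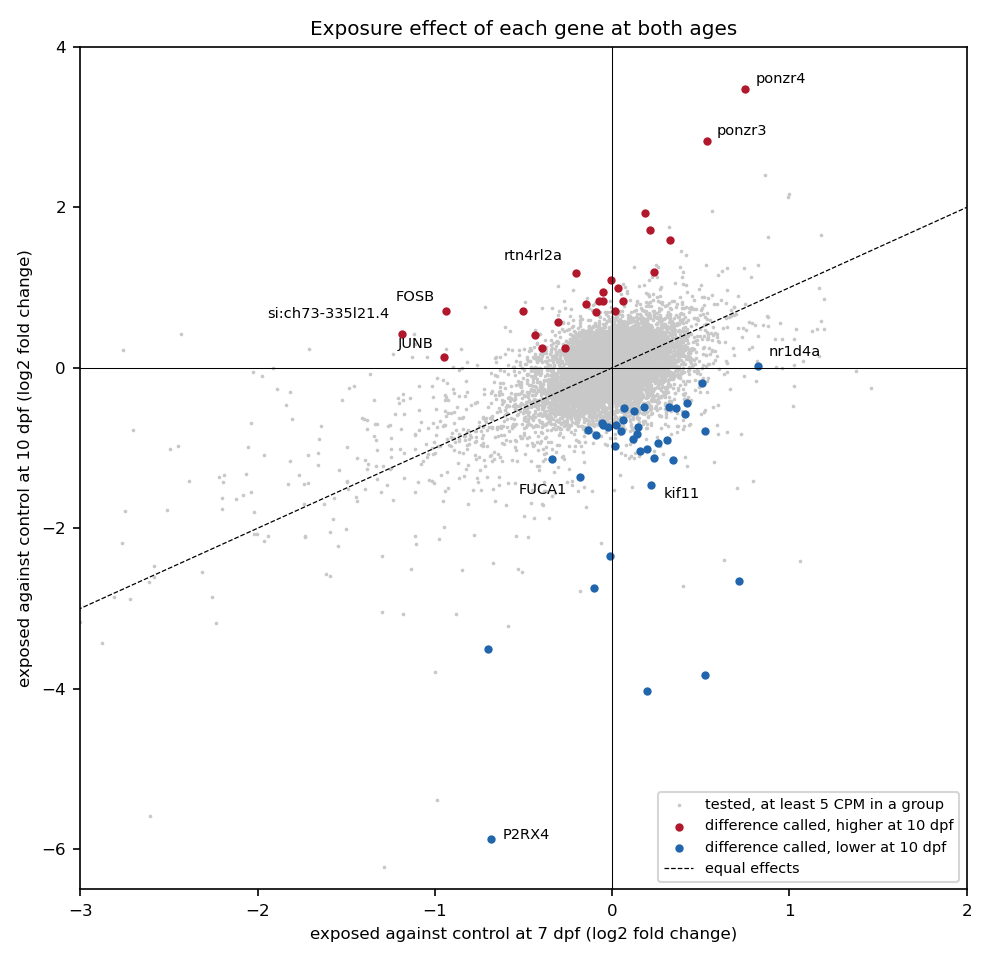
Each point is a gene, with its log2 fold change of exposed against control larvae at 7 dpf on the x axis and at 10 dpf on the y axis. Grey points are genes of at least 5 CPM that were not called for the difference, red and blue points the 24 higher and 38 lower genes, and the dashed line marks equal effects. The called genes lie above or below the line by 0.506 to 5.19 on the log2 scale, and most of them lie close to 0 on the x axis.

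**Figure D2:**
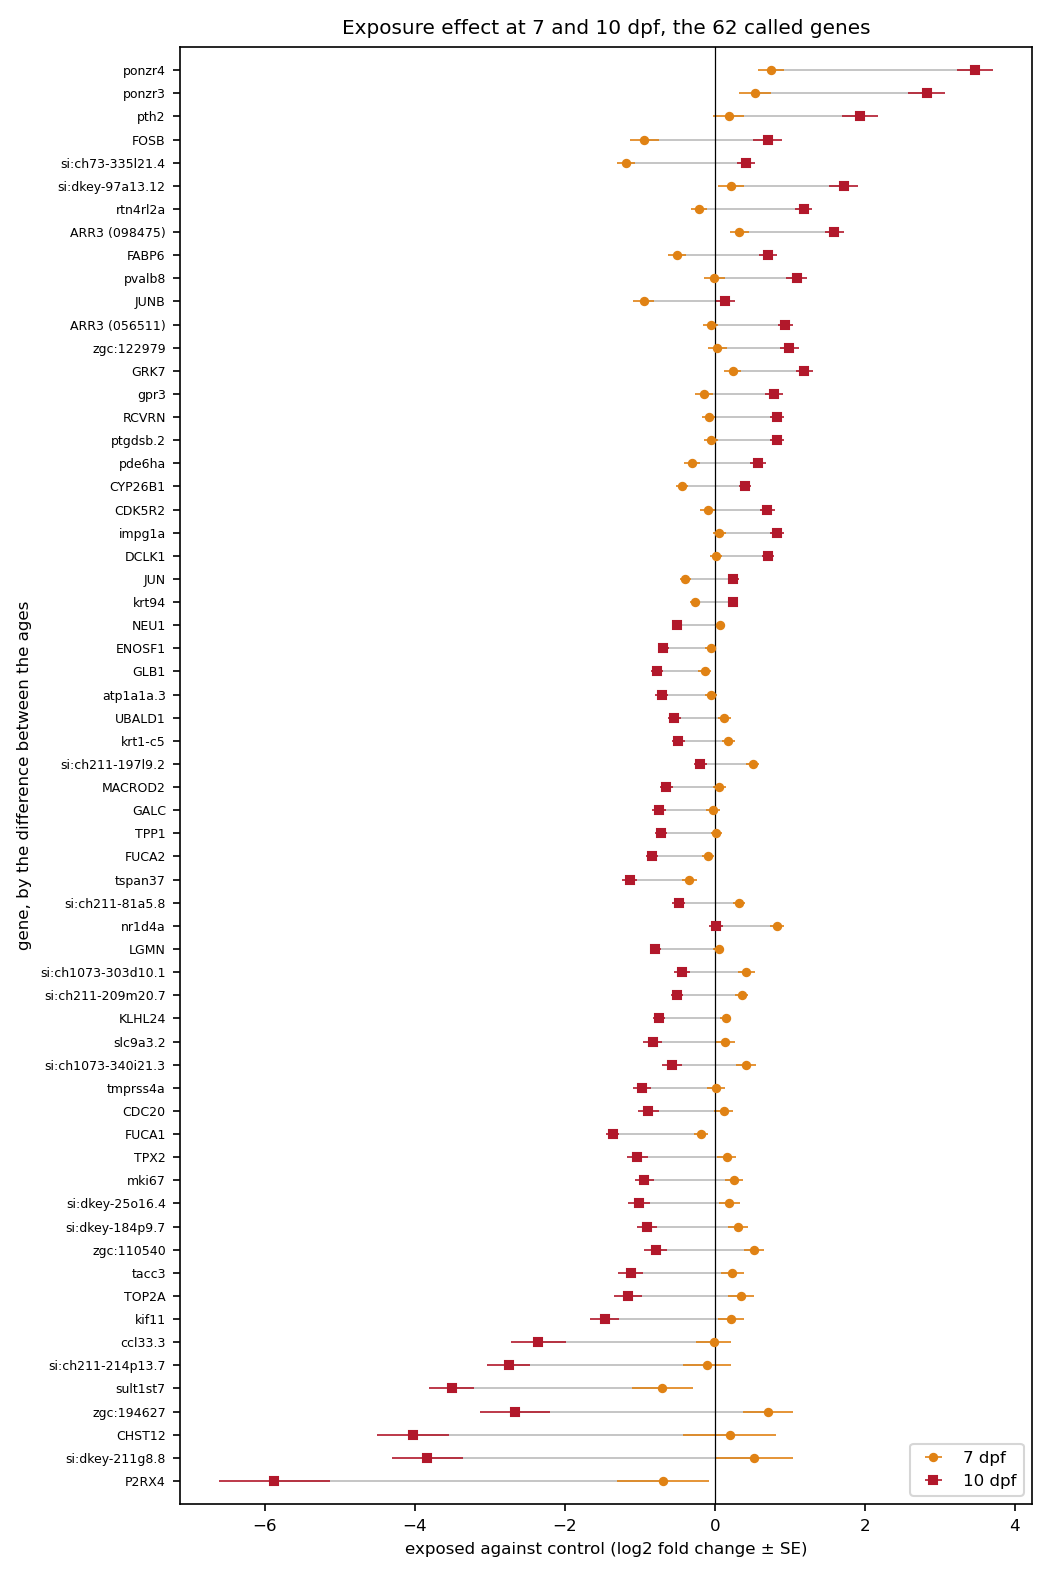
Log2 fold change of exposed against control larvae at 7 dpf (circles) and 10 dpf (squares), with standard errors, for the 62 called genes in the order of their difference. The differences run from -5.19 for P2RX4 to 2.72 for ponzr4, and in most genes the 10 dpf value is the one far from 0.

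In all, 3 genes were called in opposite directions at the 2 ages. The gene si:ch73-335l21.4 (ENSDARG00000091234), which has no annotated role here, stood at 66.0, 74.2 and 58.8 CPM in the controls at 7 dpf and at 26.6, 34.1 and 26.6 CPM in exposed larvae. At 10 dpf the controls had 31.8, 31.6 and 29.3 CPM and exposed larvae 36.7, 40.7 and 46.3 CPM. The groups did not overlap at either age, and their order turned round: exposed larvae were lower at 7 dpf and higher at 10 dpf. The effect was -1.19 ± 0.12 (log2, SE) at 7 dpf and 0.42 ± 0.12 at 10 dpf, a difference of 1.602 ± 0.165 (edgeR, adjusted p = 0.00297).

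CYP26B1 (ENSDARG00000077121) encodes an enzyme that breaks down retinoic acid. It stood at 55.4, 50.8 and 51.7 CPM in controls and 39.9, 37.9 and 38.8 CPM in exposed larvae at 7 dpf, and at 31.4, 29.2 and 33.7 CPM in controls and 43.2, 38.6 and 42.9 CPM in exposed larvae at 10 dpf. Exposed larvae thus held nearly the same level at both ages (mean 38.9 ± 1.004 and 41.6 ± 2.61 CPM), while the control mean was 52.7 ± 2.44 CPM at 7 dpf and 31.4 ± 2.25 CPM at 10 dpf. The difference was 0.84 ± 0.11 (edgeR, adjusted p = 0.00878).

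JUN (ENSDARG00000043531), a subunit of the transcription factor AP-1, stood at 139.9, 145.1 and 130.4 CPM in controls and at 104.1, 111.2 and 100.8 CPM in exposed larvae at 7 dpf. At 10 dpf the controls had 113, 126 and 115 CPM and exposed larvae 135, 138 and 148 CPM. Exposed libraries were all below the controls at 7 dpf and all above them at 10 dpf, by -0.39 ± 0.07 and 0.25 ± 0.07 (log2, SE), and the difference was 0.64 ± 0.10 (edgeR, adjusted p = 0.0284). In edgeR's tests at 7 and 10 dpf the adjusted p was 0.00339 and 0.0368 for si:ch73-335l21.4, and 0.0241 and 0.00551 for CYP26B1. For JUN it was 0.0339 and 0.0440. The leave-out values given next concern the difference, not the calls at each age. The calls of si:ch73-335l21.4 and CYP26B1 for the difference were kept whichever library was left out, with adjusted p-values of at most 0.0171 and 0.0288. JUN was lost in 7 of the 12 such fits, in which its difference stayed between 0.61 and 0.69 and its adjusted p reached 0.0911.

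**Figure D3:**
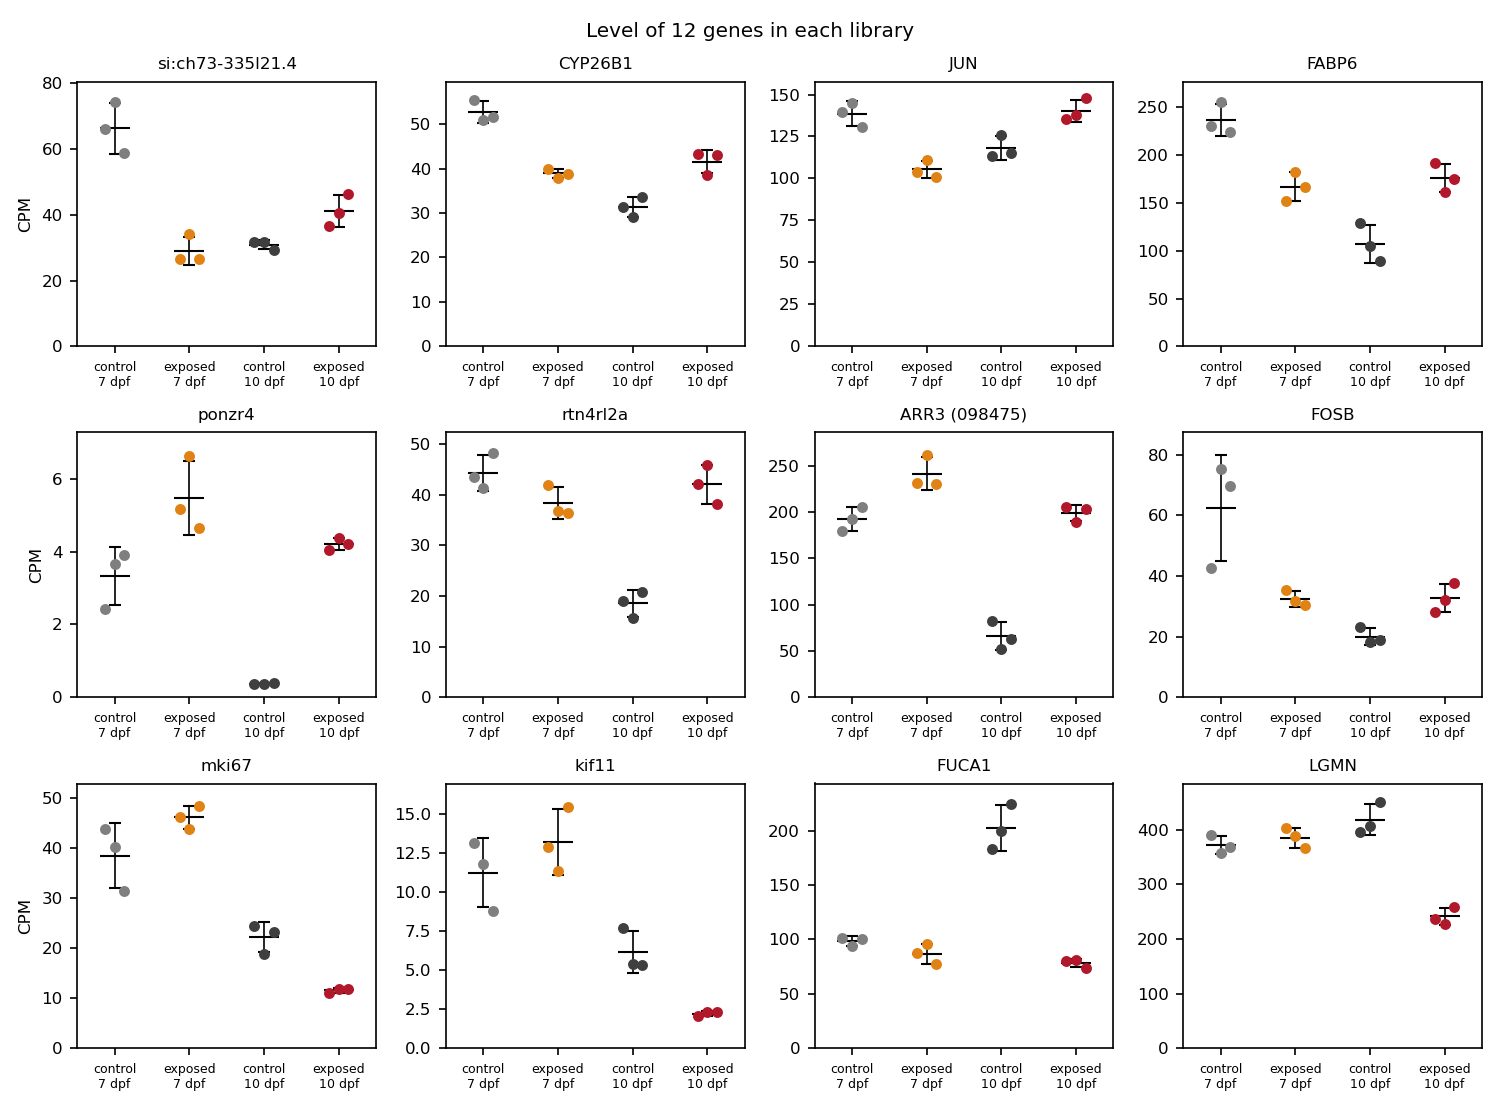
Level in CPM of 12 called genes in every library, with 1 point per library and the mean and SD of each group in black. The upper row holds genes whose exposed libraries changed sides between the ages, the middle row genes higher at 10 dpf (FOSB changed sides as well), and the lower row genes lower at 10 dpf.

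JUNB and FOSB, which also encode subunits of AP-1, were called as well. Of 2 genes with the symbol JUNB, ENSDARG00000074378 was called for the difference. It stood at 81.0, 100.4 and 79.2 CPM in controls and 47.1, 50.1 and 37.2 CPM in exposed larvae at 7 dpf, where the groups did not overlap. At 10 dpf they did, with 63.2, 86.3 and 77.4 CPM in controls and 84.7, 88.0 and 76.8 CPM in exposed larvae. Its effect was -0.95 ± 0.13 at 7 dpf and 0.14 ± 0.13 at 10 dpf, a difference of 1.09 ± 0.19 (edgeR, adjusted p = 0.0411). The other JUNB gene, ENSDARG00000104773, had a difference of 1.11 ± 0.25 that did not pass the test (edgeR, adjusted p = 0.130).

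FOSB (ENSDARG00000055751), a partner of the JUN proteins in AP-1, stood at 42.6, 75.4 and 69.5 CPM in controls and 35.4, 31.6 and 30.5 CPM in exposed larvae at 7 dpf. At 10 dpf it stood at 23.2, 18.1 and 18.8 CPM in controls and 28.3, 32.2 and 37.6 CPM in exposed larvae. The libraries changed sides here too, with no overlap at either age, and the difference was 1.65 ± 0.27 (edgeR, adjusted p = 0.0411). The effect at 7 dpf alone did not pass the test (edgeR, adjusted p = 0.0606). Exposed larvae had like mean levels at both ages, 32.5 ± 2.56 and 32.7 ± 4.67 CPM, while the control mean went from 62.5 ± 17.5 to 20.02 ± 2.81 CPM. When single libraries were left out, the adjusted p reached 0.105 for JUNB and 0.127 for FOSB.

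JUN and JUNB belong to a list of 53 inflammation genes, of which these 2 were called higher and none lower (0.104% and 0.165% of all genes tested). In this list 37 genes had a difference above 0 (50.73% of all genes tested did), and the median was 0.26, beside 0.005 over all genes tested. Members of this and all other lists were chosen with earlier results of these data known, so such counts describe the lists and are no test. At 7 dpf 9 of the 53 were called lower and none higher (0.338% and 0.178% of all genes), at 10 dpf 10 lower and 2 higher (7.02% and 4.77% of all genes). The median effect was -0.63 at 7 dpf and -0.22 at 10 dpf. The cytokine feedback inhibitor SOCS3 (ENSDARG00000026611) went from an effect of -1.09 to -0.22 and the chemokine cxcl18b from -1.82 to -0.30, and neither difference passed the test (edgeR, adjusted p = 0.0966 and 0.127). Both were named outside the rule for named genes, and 16 of the 53 genes had a difference below 0. The list's median difference lay between 0.094 and 0.463 when single libraries were left out, lowest without control replicate 1 and highest without control replicate 3 at 7 dpf. The number of called genes ran from 0 without control replicate 2 to 3 without control replicate 3 at 7 dpf. Without exposed replicate 1 at 10 dpf the median was 0.34, with 1 gene called.

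Genes of cell division showed the lowest median of the 29 lists. Of 57 mitosis genes tested, 6 were called lower and none higher (0.165% and 0.104% of all genes tested). In 56 the difference was below 0 (49.27% of all genes tested), and the median was -0.97. It was -0.95 without exposed replicate 1 at 10 dpf and lay between -1.101 and -0.83 over all fits that left out 1 library. At 7 dpf 52 of the 57 had a fitted effect above 0 (47.39% of all genes tested), with a median of 0.22. None of the 57 was called at 7 dpf, where 0.516% of all genes were. At 10 dpf 55 were below 0, with a median of -0.73, and 25 were called lower. Of all genes tested, 50.57% were below 0 and 7.02% were called lower at that age. The summed level of the list in the order of the replicates was 367, 325 and 251 CPM in controls and 363, 346 and 394 CPM in exposed larvae at 7 dpf. At 10 dpf it was 198, 160.4 and 174 CPM in controls and 104.4, 101.7 and 110.6 CPM in exposed larvae. The 7 dpf groups overlapped, and at 10 dpf all exposed libraries lay below all controls.

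The median change of the list from 7 to 10 dpf was -0.81 on the log2 scale in controls and -1.76 in exposed larvae. The called members were mki67, which marks cycling cells, kif11, the kinesin that pushes spindle poles apart, the spindle assembly factors TPX2 and tacc3, the DNA topoisomerase TOP2A and CDC20, which activates the anaphase-promoting complex. For mki67 (ENSDARG00000091150) the libraries held 43.8, 40.1 and 31.3 CPM in controls and 46.0, 43.7 and 48.4 CPM in exposed larvae at 7 dpf. At 10 dpf they held 24.4, 18.8 and 23.3 CPM and 10.97, 11.91 and 11.75 CPM. Exposed larvae overlapped with controls at the earlier age and lay below all of them at the later one, where the effect was -0.94 ± 0.12.

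The difference for mki67 was -1.20 ± 0.17 (edgeR, adjusted p = 0.0176). That of kif11 was -1.69 ± 0.26 (0.0224), of TPX2 -1.19 ± 0.19 (0.0236), of tacc3 -1.36 ± 0.23 (0.0339), of TOP2A -1.50 ± 0.26 (0.0411) and of CDC20 -1.004 ± 0.19 (0.0479), with edgeR's adjusted p in parentheses. All 6 had effects above 0 at 7 dpf, between 0.12 and 0.35, none of which passed the test. The cyclins CCNA2 (-1.36, adjusted p = 0.0515) and CCNB1 (-1.24, adjusted p = 0.0653) lay just outside edgeR's threshold. Leaving out 1 library raised the adjusted p of mki67 to at most 0.056 and of CDC20 to at most 0.134, and the number of called mitosis genes ranged from 0, among others without control replicate 2 at 7 dpf, to 10 without control replicate 1 at 7 dpf.

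Genes that copy DNA had a median closer to 0. Of 63 DNA replication genes none was called for the difference at the adjusted threshold. In 22 the unadjusted p was under 0.05 (34.9%, beside 11.3% of all genes tested). A difference below 0 was found in 60 (49.27% of all genes tested), and the median was -0.38. It was -0.37 without exposed replicate 1 at 10 dpf. Among named members of at least 5 CPM the smallest p was that of RRM1, the large subunit of ribonucleotide reductase. Its effect was 0.22 at 7 dpf and -0.51 at 10 dpf (difference -0.73 ± 0.15, edgeR, adjusted p = 0.0782). PCNA, the sliding clamp of DNA polymerase, had 0.15 at 7 dpf and -0.23 at 10 dpf (adjusted p = 0.366 for the difference).

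**Figure D4:**
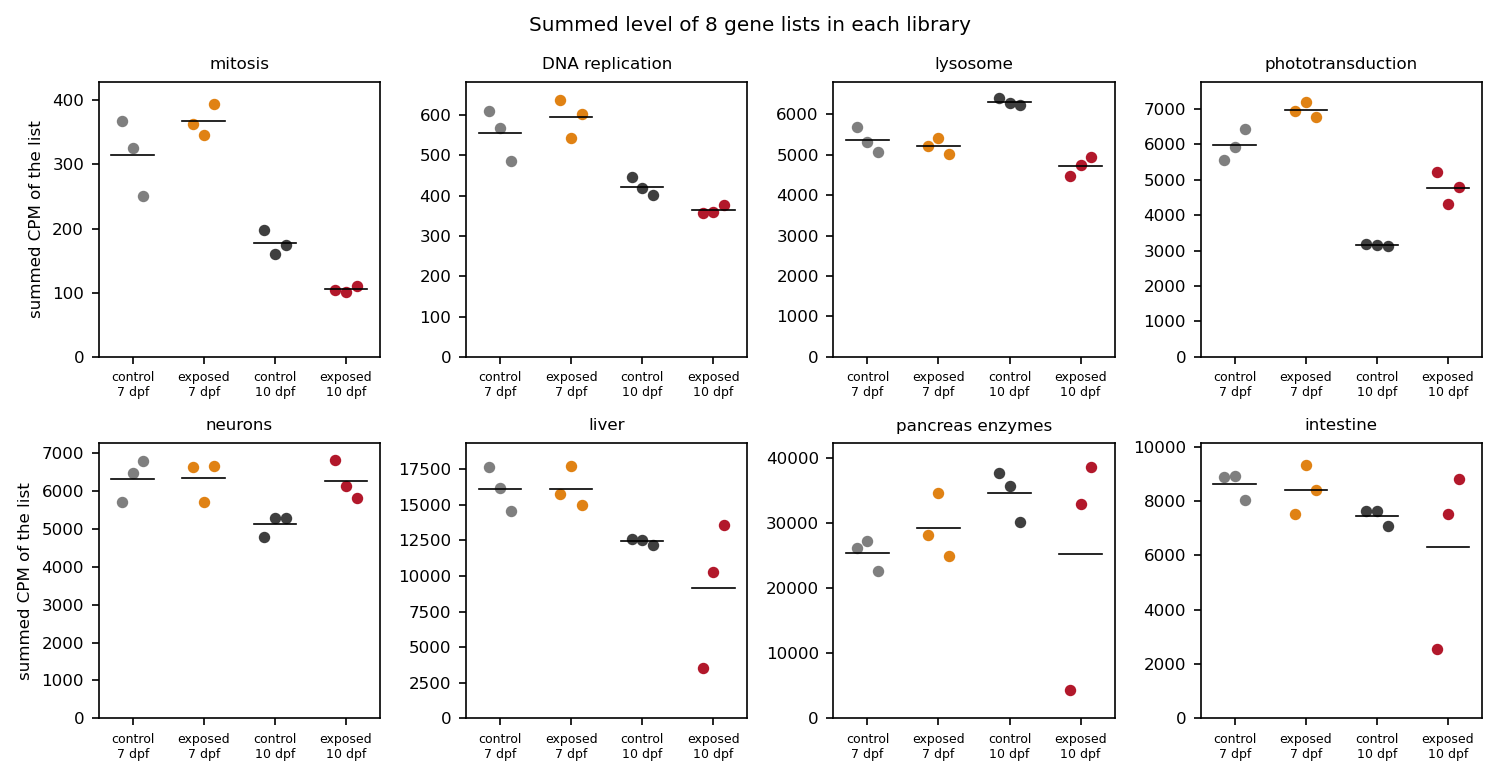
Summed CPM of 8 gene lists in every library, with 1 point per library and a line at the group mean. In the mitosis panel the exposed libraries at 10 dpf lie at 101.7 to 110.6 CPM, below controls at 160.4 to 198 CPM, and in the liver, pancreas and intestine panels exposed replicate 1 at 10 dpf lies far below the other libraries.

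The lysosome is the compartment in which cells break down proteins, sugar chains and lipids, and genes of its enzymes were called lower in exposed larvae at 10 dpf but not at 7 dpf. Of 74 lysosome genes tested, 6 were called lower for the difference and none higher (0.165% and 0.104% of all genes tested). A difference below 0 was found in 61 (49.27% of all genes tested), and the median was -0.27. It was -0.26 without exposed replicate 1 at 10 dpf and between -0.34 and -0.21 over all fits that left out 1 library. None of the 74 was called at 7 dpf, where 0.516% of all genes were, and 32 were called lower at 10 dpf, where 7.02% of all genes were. The number called for the difference fell to 2 without control replicate 2 at 7 dpf. The list's summed level was 5690, 5314 and 5058 CPM in controls and 5218, 5402 and 5016 CPM in exposed larvae at 7 dpf. At 10 dpf it was 6392, 6281 and 6225 CPM in controls and 4484, 4745 and 4952 CPM in exposed larvae. The groups overlapped at the first age and lay apart at the second. The median age change was 0.26 in controls and -0.05 in exposed larvae (log2).

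FUCA1 (ENSDARG00000035890, 1 of 2 genes of that symbol), which encodes an enzyme that removes fucose, stood at 101.8, 93.7 and 100.7 CPM in controls and 87.8, 95.5 and 77.3 CPM in exposed larvae at 7 dpf. At 10 dpf it stood at 183, 200.1 and 224 CPM in controls and at 80.6, 81.2 and 74.3 CPM in exposed larvae. Its difference was -1.18 ± 0.13 (edgeR, adjusted p = 0.00297). LGMN (ENSDARG00000039150), the asparaginyl protease legumain, which also counts among the intestine genes, stood at 389, 358 and 369 CPM in controls and 402, 388 and 365 CPM in exposed larvae at 7 dpf. At 10 dpf it stood at 396, 407 and 449.9 CPM in controls and 237, 228 and 259 CPM in exposed larvae. Here the controls changed by 0.17 with age and exposed larvae by -0.67, and the difference was -0.84 ± 0.11 (edgeR, adjusted p = 0.0117). Both calls were kept whichever library was left out.

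The other called lysosome genes were the peptidase TPP1 (difference -0.74 ± 0.11), the fucosidase FUCA2 (-0.75 ± 0.12), the sialidase NEU1 (-0.57 ± 0.10) and the beta-galactosidase GLB1 (-0.64 ± 0.12), with edgeR's adjusted p of 0.0188, 0.0276, 0.0355 and 0.0479. TPP1 was at 48.25 ± 3.199 and 48.9 ± 2.74 CPM in controls and exposed larvae at 7 dpf and at 76.1 ± 3.34 and 46.4 ± 2.76 CPM at 10 dpf. GALC (ENSDARG00000037064, 1 of 2 genes of that symbol), which removes galactose from a lipid of myelin and was not on the list, was called as well (-0.72 ± 0.13, edgeR, adjusted p = 0.0453). It is named after its values were seen. In single leave-out fits the adjusted p of TPP1, FUCA2, NEU1 and GLB1 reached 0.0591, 0.0886, 0.0953 and 0.138.

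Photoreceptor genes went the other way. Of 80 genes of the phototransduction list, 5 were called higher and none lower (0.104% and 0.165% of all genes tested). The list as a whole was higher in exposed larvae at both ages: 41 genes were called higher at 10 dpf (4.77% of all genes) and 3 at 7 dpf (0.178% of all genes), with median effects of 0.42 and 0.24. The median difference was 0.19 and 55 genes lay above 0 (50.73% of all genes tested). It was 0.072, with 48 above 0 and 3 called, without exposed replicate 1 at 10 dpf. The summed level was 5542, 5917 and 6442 CPM in controls and 6941, 7198 and 6773 CPM in exposed larvae at 7 dpf, and 3176, 3164 and 3141 CPM in controls and 5209, 4315 and 4807 CPM in exposed larvae at 10 dpf. The summed level was lower at 10 than at 7 dpf in both groups, and the groups lay apart at both ages. The number of called genes was 0 without exposed replicate 1 at 7 dpf and at most 4 in the other leave-out fits.

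The 2 genes with the symbol ARR3, the arrestin of cones that shuts off light-activated opsins, were both called. ENSDARG00000098475 stood at 179.7, 192 and 205 CPM in controls and 231, 261 and 229.9 CPM in exposed larvae at 7 dpf, and at 82.4, 52.6 and 62.8 CPM in controls and 205, 189 and 203 CPM in exposed larvae at 10 dpf. Exposed libraries were above all controls at both ages, and the effect grew from 0.33 ± 0.13 to 1.59 ± 0.13 (difference 1.27 ± 0.18, edgeR, adjusted p = 0.0176). ENSDARG00000056511 had overlapping groups at 7 dpf, with means of 211 ± 27.16 CPM in controls and 203 ± 14.6 CPM in exposed larvae, and separate ones at 10 dpf, with 97.5 ± 3.72 and 187 ± 14.2 CPM (difference 0.995 ± 0.136, edgeR, adjusted p = 0.0155).

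The opsin kinase of cones GRK7 (ENSDARG00000020602, 1 of 2 genes of that symbol) went from 216 ± 29.5 CPM in controls and 255 ± 4.47 CPM in exposed larvae at 7 dpf to 75.8 ± 3.77 and 174 ± 26.5 CPM at 10 dpf (difference 0.96 ± 0.16, edgeR, adjusted p = 0.0326). The inhibitory phosphodiesterase subunit pde6ha was below the controls at 7 dpf, at 139 ± 6.17 against 172 ± 27.8 CPM, and above them at 10 dpf, at 231 ± 16.9 against 155 ± 12.3 CPM (difference 0.88 ± 0.15, edgeR, adjusted p = 0.0355). Its effect at 7 dpf did not pass the test (adjusted p = 0.248). The matrix proteoglycan impg1a had 0.77 ± 0.13 (edgeR, adjusted p = 0.0355). RCVRN (ENSDARG00000009637, 1 of 2 genes of that symbol), the calcium sensor recoverin, was not on the list and was called too (0.90 ± 0.14, edgeR, adjusted p = 0.0213). Without exposed replicate 1 at 10 dpf impg1a and pde6ha were no longer called. The opsins opn1sw2 (0.74) and opn1mw1 (0.74) and the transducin subunit GNAT2 (0.47) did not pass the test for the difference (edgeR, adjusted p = 0.149, 0.154 and 0.214). They were named outside the rule for named genes, and 25 of the 80 genes on the list had a difference below 0.

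Lists of other head tissues shifted in the same direction without calls at the adjusted threshold. Of 63 neuron genes 60 had a difference above 0, with a median of 0.28 and 22 at an unadjusted p under 0.05, and of 54 lens genes 46, with a median of 0.28 and 11 at that level. Of all genes tested, 50.73% had a difference above 0 and 11.3% an unadjusted p under 0.05. The medians were 0.22 and 0.21 without exposed replicate 1 at 10 dpf. Among their named members of at least 5 CPM, those with the smallest p were INA, a neuronal intermediate filament protein (0.70 ± 0.16, edgeR, adjusted p = 0.118), and the lens crystallin crygm2e (0.76 ± 0.21, edgeR, adjusted p = 0.197). Among the called genes outside the lists, CDK5R2 activates a kinase of neurons (0.79 ± 0.14), DCLK1 is a kinase that binds microtubules (0.69 ± 0.11), gpr3 is a receptor coupled to G proteins (0.94 ± 0.17) and pvalb8 is a calcium-binding parvalbumin (1.096 ± 0.20). CDK5R2 (ENSDARG00000078671) and DCLK1 (ENSDARG00000018856) are each 1 of 2 genes of their symbol. The peptide hormone gene pth2 stood at 0.862, 0.475 and 0.847 CPM in controls and 2.82, 2.95 and 2.51 CPM in exposed larvae at 10 dpf, beside 2.55 ± 0.24 and 2.88 ± 0.73 CPM at 7 dpf (difference 1.75 ± 0.32). Their edgeR adjusted p-values ran from 0.0326 to 0.0494, and CDK5R2, DCLK1, gpr3 and pth2 are named after their values were seen.

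The gene rtn4rl2a (ENSDARG00000052012), of the Nogo receptor family, was among the 4 smallest p-values. It stood at 43.5, 41.3 and 48.2 CPM in controls and 41.9, 36.9 and 36.3 CPM in exposed larvae at 7 dpf, and at 19.1, 15.7 and 20.8 CPM in controls and 42.2, 45.9 and 38.2 CPM in exposed larvae at 10 dpf. The control level changed by -1.26 on the log2 scale between the ages, and that of exposed larvae by 0.13. The difference was 1.39 ± 0.15 (edgeR, adjusted p = 0.00297) and was called whichever library was left out. The lipocalin gene ptgdsb.2, of the prostaglandin D synthase type, had a like pattern, with 46.2 ± 4.38 and 44.5 ± 1.02 CPM at 7 dpf and 28.5 ± 1.04 and 51.0 ± 6.29 CPM at 10 dpf in controls and exposed larvae (difference 0.89 ± 0.13, edgeR, adjusted p = 0.0195).

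Among the called genes the largest higher differences belonged to ponzr4 and ponzr3, of the onzin-related family, whose members are alike in sequence. For ponzr4 (ENSDARG00000087440) the libraries held 2.43, 3.65 and 3.92 CPM in controls and 5.18, 6.61 and 4.65 CPM in exposed larvae at 7 dpf. At 10 dpf they held 0.372, 0.372 and 0.393 CPM in controls and 4.06, 4.37 and 4.199 CPM in exposed larvae. Controls at 10 dpf rest on 19, 18 and 13 reads. Exposed larvae were above the controls at both ages, by 0.75 ± 0.18 at 7 dpf, which did not pass the test (edgeR, adjusted p = 0.0838), and by 3.47 ± 0.24 at 10 dpf. The difference was 2.72 ± 0.30 (edgeR, adjusted p = 0.00297) and was called whichever library was left out. For ponzr3 it was 2.29 ± 0.33 (edgeR, adjusted p = 0.0227), with 2.15 ± 0.93 CPM in controls and 15.6 ± 0.95 CPM in exposed larvae at 10 dpf. It was lost in 6 of the 12 leave-out fits.

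Both were placed on a list of 80 genes of skin, keratins and ion-transporting cells, with a median difference of -0.07. Of these 80, 3 were called higher and 2 lower (0.104% and 0.165% of all genes tested). The list was written with earlier results of these data known, so these counts are no test. The third higher gene was the keratin krt94, at 70.02, 70.11 and 69.7 CPM in controls and 58.1, 59.8 and 56.8 CPM in exposed larvae at 7 dpf and at 74.3, 74.02 and 75.6 CPM and 94.6, 83.2 and 87.0 CPM at 10 dpf. Its libraries changed sides, with a difference of 0.51 ± 0.09 (edgeR, adjusted p = 0.0411), while its 7 dpf effect did not pass the test (edgeR, adjusted p = 0.0898). The lower genes were the sodium/proton exchanger slc9a3.2 (-0.97 ± 0.18) and the keratin krt1-c5 (-0.67 ± 0.12), with edgeR's adjusted p of 0.0453 and 0.0461. The sodium pump subunit atp1a1a.3, not on the list, was lower as well (-0.66 ± 0.12, edgeR, adjusted p = 0.0453). The serine protease gene tmprss4a was at 14.5 ± 2.86 and 14.8 ± 0.97 CPM at 7 dpf and at 29.6 ± 2.29 and 15.05 ± 0.78 CPM at 10 dpf in controls and exposed larvae (-0.99 ± 0.17, edgeR, adjusted p = 0.0374). Without exposed replicate 1 at 10 dpf 2 genes of the list were called higher and none lower, with a median of -0.05, and the fits that left out 1 library called 1 to 3 genes in all.

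FABP6 (ENSDARG00000044566), an intracellular bile acid binding protein of the gut, changed sides between the ages. It stood at 230.2, 256 and 224 CPM in controls and 152, 183 and 167 CPM in exposed larvae at 7 dpf, and at 129, 104.5 and 89.1 CPM in controls and 191, 162 and 176 CPM in exposed larvae at 10 dpf. The groups did not overlap at either age. The difference was 1.21 ± 0.17 (edgeR, adjusted p = 0.0172), while the 7 dpf effect alone, -0.50 ± 0.12, did not pass the test (adjusted p = 0.0896). In exposed replicate 1 at 10 dpf, where the summed level of 44 intestine genes was 2569 CPM against 7508 and 8803 CPM in replicates 2 and 3, FABP6 was the highest of the 3, at 191 CPM. It was called without that library and lost in 3 other leave-out fits, with an adjusted p of at most 0.0542.

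KLHL24 (ENSDARG00000008275, 1 of 2 genes of that symbol), a substrate adaptor of a ubiquitin ligase, was lower. It stood at 179, 159 and 176 CPM in controls and 187, 194 and 187 CPM in exposed larvae at 7 dpf, and at 259.9, 287 and 279.7 CPM in controls and 164, 175 and 154 CPM in exposed larvae at 10 dpf. Exposed libraries were above the controls at 7 dpf by 0.14 ± 0.07, which did not pass the test, and below them at 10 dpf by -0.74 ± 0.07. The difference was -0.89 ± 0.11 (edgeR, adjusted p = 0.00502) and was called whichever library was left out.

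One clock gene had an effect at 7 dpf and none that passed at 10 dpf. The repressor gene nr1d4a (ENSDARG00000031161), of the Rev-erb family, stood at 20.3, 23.8 and 26.6 CPM in controls and 42.04, 39.9 and 43.2 CPM in exposed larvae at 7 dpf. At 10 dpf it stood at 12.3, 11.3 and 12.2 CPM and 12.6, 11.2 and 12.4 CPM. The groups lay apart at the first age and overlapped at the second, with effects of 0.83 ± 0.09 and 0.02 ± 0.10 and a difference of -0.81 ± 0.14 (edgeR, adjusted p = 0.0355). It was the only called gene of 49 circadian clock genes, whose median difference was 0.11 (0.12, with 1 gene called, without exposed replicate 1 at 10 dpf), and the labels give no hour of sampling. The call was lost in 9 of the 12 leave-out fits. Besides JUNB, si:ch211-197l9.2 was the other gene of the 62 called at 7 dpf only (0.51 ± 0.09 and -0.19 ± 0.09, difference -0.70 ± 0.12, edgeR, adjusted p = 0.0401).

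Several of the largest lower differences among the called genes came from genes with few reads outside the controls at 10 dpf. For P2RX4 (ENSDARG00000042452, 1 of 2 genes of that symbol), a channel opened by ATP, the reads at 10 dpf were 411, 424 and 91 in controls and 2, 10 and 2 in exposed larvae, and at 7 dpf 41, 9 and 14 in controls and 10, 20 and 6 in exposed larvae. Its levels at 10 dpf were 8.05, 8.75 and 2.75 CPM in controls and 0.0634, 0.177 and 0.0528 CPM in exposed larvae, and the difference was -5.19 ± 0.96 (edgeR, adjusted p = 0.0453). The sulfotransferase sult1st7 had 161, 151 and 131 reads in controls and 10, 15 and 12 in exposed larvae at 10 dpf (-2.81 ± 0.50), and CHST12 (ENSDARG00000094981, 1 of 7 genes of that symbol), a sulfotransferase of cartilage sugars, 136, 90 and 86 against 1, 7 and 10 reads (-4.22 ± 0.78), both with an edgeR adjusted p of 0.0453. The clone-named gene si:dkey-211g8.8 had 1074, 509 and 449 against 20, 55 and 58 reads (-4.36 ± 0.70). In each of these genes the mean level of the controls at 10 dpf was the highest of the 4 groups. CHST12, with 6, 6 and 4 reads in controls and 11, 6 and 1 in exposed larvae at 7 dpf, entered the test only through that group. All 4 calls were lost in 10 or 11 of the 12 leave-out fits, with adjusted p-values of up to 0.259, and such folds depend on few reads.

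In others the exposed larvae at 10 dpf had the lowest mean. The clone-named gene zgc:194627 (-3.38) had 2, 10 and 7 reads in exposed larvae and 54, 45 and 29 in controls at that age, with 51, 31 and 13 in controls and 78, 52 and 19 in exposed larvae at 7 dpf. The chemokine gene ccl33.3 had 3, 13 and 4 reads in exposed larvae at 10 dpf against 38, 38 and 30 in controls (-2.34 ± 0.44, edgeR, adjusted p = 0.0411). Of the remaining called genes with a name, MACROD2, which removes ADP-ribose from proteins, had -0.71 ± 0.12, the tetraspanin tspan37 -0.79 ± 0.14, ENOSF1 -0.63 ± 0.11 and UBALD1 -0.67 ± 0.12, with edgeR's adjusted p between 0.0364 and 0.0453. In each of them the control level was higher at 10 than at 7 dpf. These 4, ccl33.3, sult1st7 and CHST12 are named after their values were seen.

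In all, 14 of the 62 genes carry only the name of a clone, 3 of them higher and 11 lower. Several of the lower ones lay on opposite sides of the controls at the 2 ages without overlap. The gene si:ch211-209m20.7 stood at 17.9, 19.8 and 19.8 CPM in controls and 26.2, 24.3 and 23.0 CPM in exposed larvae at 7 dpf, and at 28.3, 27.21 and 25.5 CPM and 17.8, 20.8 and 18.6 CPM at 10 dpf (-0.86 ± 0.12, edgeR, adjusted p = 0.0172). For si:ch211-81a5.8 the means were 55.2 ± 2.33 and 69.0 ± 6.78 CPM at 7 dpf and 114 ± 8.10 and 81.6 ± 4.28 CPM at 10 dpf (-0.81 ± 0.12, edgeR, adjusted p = 0.0188). The same order held for zgc:110540 (-1.31 ± 0.20), si:ch1073-303d10.1 (-0.86 ± 0.15), si:ch1073-340i21.3 (-0.98 ± 0.18) and si:dkey-25o16.4 (-1.21 ± 0.20). None of their 7 dpf effects passed the test. The others were si:dkey-184p9.7 (-1.21), si:ch211-214p13.7 (-2.65) and zgc:194627 (-3.38), and among the higher genes zgc:122979 (0.96) and si:dkey-97a13.12 (1.51).

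The values around the threshold were close to each other. The last genes inside it were GLB1, si:ch1073-340i21.3 and pvalb8, with edgeR's adjusted p of 0.0479, 0.0491 and 0.0494. The first outside were gbgt1l2 and CCNA2, both at 0.0515, and si:dkey-211g8.5 at 0.0532.

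Genes called at both ages in the same direction give the other side of the comparison. In controls and exposed larvae the pteridine pigment enzyme gch2 had 32.7 ± 1.62 and 54.8 ± 4.66 CPM at 7 dpf and 7.44 ± 0.90 and 17.6 ± 1.61 CPM at 10 dpf, with effects of 0.75 ± 0.10 and 1.25 ± 0.11. The level changed by -2.13 on the log2 scale with age in controls, and exposed larvae were higher at either age. The epithelial factor ELF3 had effects of -2.12 ± 0.25 and -1.64 ± 0.25, and the transcription factor STAT3 -0.85 ± 0.13 and -0.62 ± 0.12. The fast myosin gene myhb had -1.27 and -0.73, the sulfotransferase sult5a1 -2.19 and -1.34, the potassium channel KCNJ1 (ENSDARG00000088484) 0.95 and 0.55, and the glutamate transporters slc1a8b 0.79 and 0.56 and SLC1A2 (ENSDARG00000052138) 0.54 and 0.42. Of these 8 differences none passed edgeR's test, with adjusted p between 0.220 and 0.736. The 95% intervals of gch2 (0.19 to 0.81), myhb (0.096 to 0.98) and KCNJ1 (-0.78 to -0.0018) did not include equal effects. These intervals are not adjusted for the number of genes tested. The others did include equal effects. The interval of the SLC1A2 difference ran from -0.37 to 0.13 and that of ELF3 from -0.31 to 1.27, so these also leave room for unequal effects.

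Lists of digestive organs had low medians that moved with single libraries of the exposed group at 10 dpf. Of all genes tested, 49.27% had a difference below 0. The median difference was -0.46 for 46 liver genes, with 45 below 0, and -0.64 for 37 pancreas genes, with 34 below 0. Without exposed replicate 1 at 10 dpf they were -0.011, with 25 below 0, and -0.15, with 28 below 0. Without exposed replicate 3 at that age they were -0.99 and -1.103. For 44 intestine genes the median was -0.15, and it was 0.13 without exposed replicate 1 and -0.43 without exposed replicate 3. No liver or pancreas gene was called for the difference by edgeR, and 0 and 2 had an unadjusted p under 0.05 (11.3% of all genes tested).

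Among the remaining lists the interferon response had a median of -0.30 (41 of 54 genes below 0) and the proteasome -0.19 (43 of 50), and cartilage and bone 0.26 (39 of 50 above 0). Over all genes tested, 49.27% lay below 0 and 50.73% above. Without exposed replicate 1 at 10 dpf the medians of these 3 lists were -0.25, -0.14 and 0.16. Over all fits that left out 1 library they lay between -0.55 and -0.17, between -0.28 and -0.11, and between 0.16 and 0.37. Neither these 3 nor the lists of fast muscle, slow and heart muscle, red blood cells, myelin and glia, pigment cells, macrophages and neutrophils, ribosome biogenesis, heat shock, cholesterol synthesis, fatty acids, oxidative phosphorylation, DNA damage arrest and hormones held a gene called for the difference. Their medians lay between -0.30 and 0.26. The antioxidant and xenobiotic list held 1, sult1st7, with a median of -0.13. Without exposed replicate 1 at 10 dpf its median was -0.013 and none of its genes was called. No gene of the yolk list was among those tested.

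For most lists without a called gene of at least 5 CPM, a single member is given here. It had the smallest p among members of at least 5 CPM whose symbol is no clone name. Members below that level may have had a smaller p. None of the members given here passed edgeR's test (adjusted p from 0.0579 to 0.584). Higher differences were found for the muscle mitochondrial creatine kinase CKMT2 (1.03 ± 0.20), the LIM protein FHL2 (0.55 ± 0.14), the glial factor EGR2 (0.73 ± 0.20), the damage-response gene GADD45G (0.58 ± 0.19), the calcium store protein CASQ2 (0.34 ± 0.11), the cholesterol synthesis enzyme HMGCS1 (0.55 ± 0.19) and the blood cell factor TAL1 (0.41 ± 0.17). Lower ones were found for the interferon gene ifi27.2 (-3.12 ± 0.62), the protease CTSK (-0.59 ± 0.13), the kinase BTK of immune cells (-2.60 ± 0.60), the kinase PDK4 (-0.38 ± 0.11), the complex I subunit NDUFB6 (-0.36 ± 0.11), asparagine synthetase ASNS (-0.49 ± 0.18), the proteasome ATPase PSMC1 (-0.37 ± 0.14), RIOK1 of ribosome assembly (-0.24 ± 0.11) and the amylase amy2al2 (-1.49 ± 0.93). The cortisol synthesis enzyme cyp11c1 and the ferritin gene fthl29 were called higher at 7 dpf, with effects of 0.74 ± 0.14 and 1.38 ± 0.23, and stood at -0.11 ± 0.14 and -0.04 ± 0.25 at 10 dpf. Their differences of -0.85 ± 0.20 and -1.42 ± 0.34 did not pass either.

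**Figure D5:**
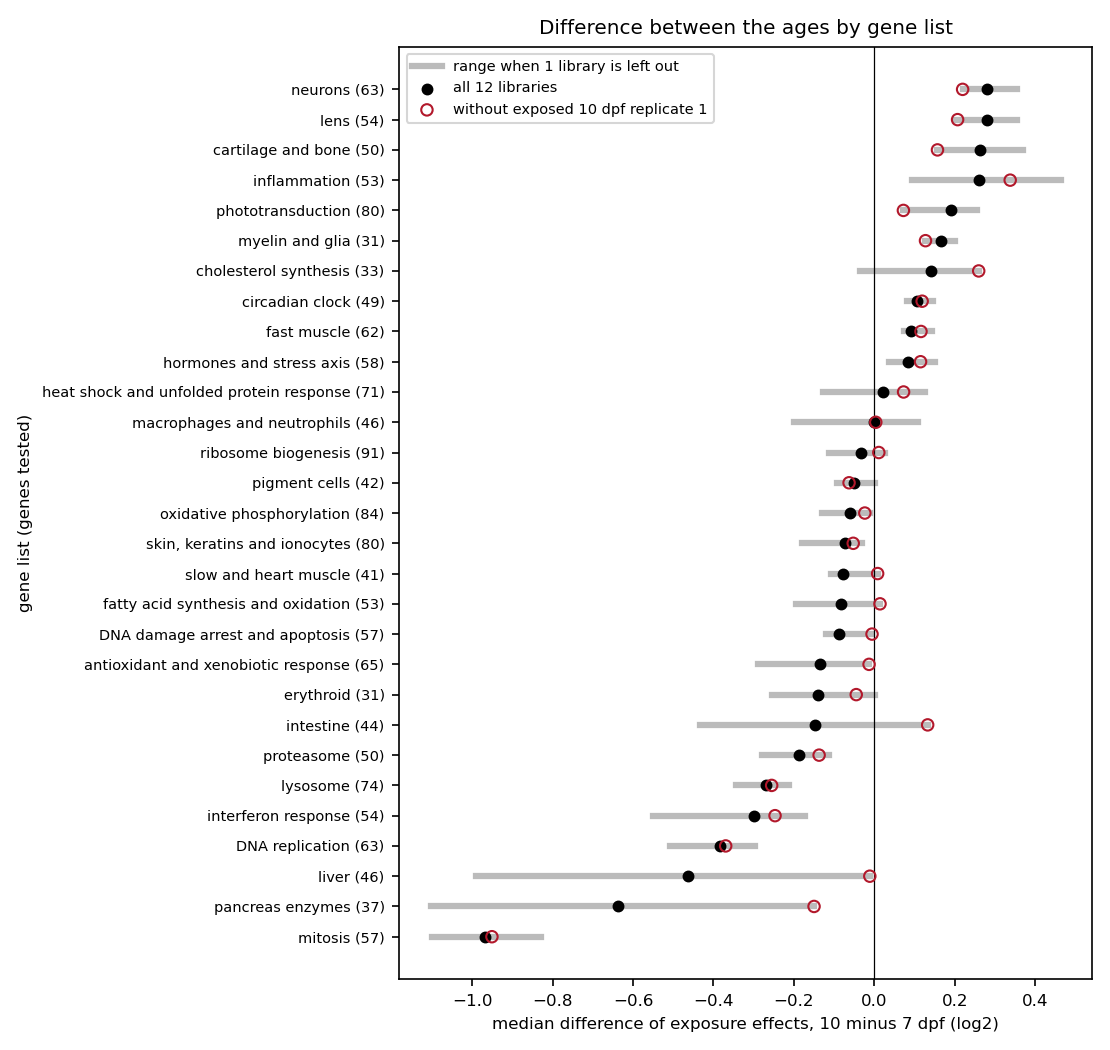
Median difference of the exposure effects (10 minus 7 dpf, log2) for 29 gene lists, with the number of genes tested in parentheses. Black points use all 12 libraries, red circles leave out exposed replicate 1 at 10 dpf, and grey bars span the 12 fits that each left out 1 library. Mitosis lies lowest at -0.97, with a bar from -1.101 to -0.83, and the bars of liver and pancreas reach from -0.99 to -0.011 and from -1.103 to -0.15.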

How the data were processed

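Messenger RNA libraries of 12 samples of entire larvae were used. The authors deposited unnormalized counts of reads on each gene, as 1 unstranded column and 1 for each strand. Per the submitters' processing notes they were made with STAR on build GRCz11. Not given in the sources used here are its version, the gene annotation and how reads of near-identical genes were split. The labels' protocols name a stranded mRNA kit, and the column whose opposite strand held 2.24 to 2.55% of the reads was used. Lines that name no gene were left out. Symbols came from a table that names 28988 of the 32057 genes.

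Genes were kept with filterByExpr (minimum count 10, minimum total 15), scaled with TMM and fitted with edgeR 4.0.16 (robust quasi-likelihood, 1 mean per group, 8 residual degrees of freedom). All tests were two-sided, and p-values were adjusted by Benjamini-Hochberg over the 23075 genes, with calls under 0.05. Standard errors and 95% intervals come from the same fit and cover the spread between libraries. The script was tested on simulated data. In all, 30 lists with 1686 symbols were written down, of which 1277 matched exactly, 298 by a stem (paralogs) and 111 not. The members and lists were chosen with earlier results of these data known. Lists are described by counts and medians, without a test.

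Genes named needed a symbol that is no clone name and a mean that reached 5 CPM in any group. They were the 10 largest differences in each direction among called genes with groups apart at 1 age, the 8 smallest p, the 8 smallest p among called genes of each reversed sign and all genes called oppositely at both ages, of which 1, si:ch73-335l21.4, has a clone name. Up to 3 called members of each list, or else the member with the smallest p, and 8 genes called at both ages in the same direction were added. Uncalled genes such as CCNA2, CCNB1, PCNA, SOCS3, cxcl18b, opn1sw2, opn1mw1 and GNAT2 were named outside this rule. A gene that this rule takes is not reported here. Alternatives were RLE and upper quartile scaling, other filters, unstranded counts, blocks by replicate number, voom with limma 3.58.1, DESeq2 1.42.0, thinning to the shallowest library, fits of 1 age and leaving out each library. R was 4.3.3 and matplotlib 3.10.9.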

Additional observations from a re-analysis of the deposited data

Results flagged for a closer look

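In 62 genes the exposure effect at 10 dpf differed from that at 7 dpf by edgeR's test of the difference itself, which is what marks them for a closer look. The values below are differences of log2 fold changes, 10 dpf minus 7 dpf, for the called genes that the rule for named genes takes.

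The difference was above 0 in si:ch73-335l21.4 (1.6), ponzr4 (2.72), rtn4rl2a (1.39), CYP26B1 (0.842), ARR3, ENSDARG00000056511 (0.995), FABP6 (1.21), ARR3, ENSDARG00000098475 (1.27), ptgdsb.2 (0.887), RCVRN (0.903), ponzr3 (2.29), JUN (0.642), GRK7 (0.956), pde6ha (0.884), JUNB (1.09), FOSB (1.65), krt94 (0.506), pvalb8 (1.1). It was below 0 in FUCA1 (-1.18), KLHL24 (-0.888), LGMN (-0.841), mki67 (-1.2), TPP1 (-0.736), kif11 (-1.69), TPX2 (-1.19), tacc3 (-1.36), NEU1 (-0.572), nr1d4a (-0.809), tmprss4a (-0.993), TOP2A (-1.5), slc9a3.2 (-0.967), P2RX4 (-5.19). No explanation is weighed here.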

How the results depend on the processing

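The count of genes called for the difference was 62, and it kept within 1.5 times of that under both other scalings, both other filters, unstranded counts and thinning to the depth of the shallowest library (45 to 64, with thinning the lowest). Thinning called 37 of the 62 genes, and the other settings just named called 58 to 61 of them. The count was 152 with voom and 280 with DESeq2, which called 61 and 62 of the 62. Leaving out 1 library gave 10 to 63. The count of 119 at 7 dpf became 447 with voom, 595 with DESeq2, 66 in a fit of that age alone and 12 to 831 when 1 library was left out. The count of 2721 at 10 dpf became 1153 to 3118 when 1 library was left out. The cause of these shifts was not tested.

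Replicate numbers are shared between groups, and deviations of same-numbered libraries from their group means correlated at over 0.1 in 8 of 18 pairs (-0.375 to 0.376). With only 3 libraries a group, whose deviations sum to 0, these correlations neither show nor exclude a pairing by number. With the replicate number as a block the difference had 22 calls, 20 of them among the 62, and the 7 dpf effect 62. With a block within each age the counts were 1 for the difference, 61 at 7 dpf and 1203 at 10 dpf. Of the 7 genes called whichever library was left out, si:ch73-335l21.4 was called in that fit too, while ponzr4 (adjusted p = 0.0700), rtn4rl2a, FUCA1, KLHL24, CYP26B1 and LGMN (each 0.0891, edgeR) were not. No named gene changed sign in any setting. Of the values for single genes, 750 missed the threshold in a setting where the main value passed and 20 passed where it did not. With 3 libraries a group many differences near the median interval of ± 0.333 cannot be told from 0.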
